A study of Mus musculus with 34 samples.

Results

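The genes described here encode the amyloid precursor protein (App) and its relatives Aplp1 and Aplp2, the proteases Bace1 and Psen2, the microtubule-binding protein tau (Mapt), and the secreted proteins apolipoprotein E (Apoe) and clusterin (Clu). They were chosen by symbol, as genes tied to amyloid and tau biology, and no synuclein gene is among them. All 8 had 1 row, with the same RefSeq identifier, in each of the deposited tables, among 11531 genes listed for hippocampus, 10379 for hippocampal primary culture and 11029 for embryonic stem cells (ESC). The identifiers are NM_001198823 (App), NM_007467 (Aplp1), NM_001102455 (Aplp2), NM_011183 (Psen2), NM_011792 (Bace1), NM_001038609 (Mapt), NM_009696 (Apoe) and NM_013492 (Clu).

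App is a membrane protein that is cut in steps. Bace1, the beta-secretase, or an alpha-secretase of the Adam family removes the outer part, and gamma-secretase, whose catalytic subunit is a presenilin such as Psen2, cuts the remaining stub within the membrane. Cleavage by Bace1 and then gamma-secretase releases the amyloid beta peptide. Aplp1 and Aplp2 are cut by the same kinds of protease. Tau binds microtubules in axons. Apoe carries lipids between cells, is made mainly by astrocytes in the brain and, with the extracellular chaperone clusterin, is known to bind amyloid beta.

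Ribosome-protected mRNA fragments (footprints) and RNA were sequenced from the hippocampus of C57BL/6N mice that were conditioned to fear a chamber by a foot shock and taken 5 min, 10 min, 30 min or 4 h later, and of control mice that received no stimulus. Each of these 5 groups had 3 footprint and 3 RNA libraries, numbered 1 to 3, and a primary culture of C57BL/6N hippocampus and ESC of line A3-1, kept for 48 h with a siRNA against luciferase, had 1 library of each kind. Footprints count the ribosomes on an mRNA, so that the footprint signal over the RNA signal, called the ratio here, gives ribosome occupancy per mRNA in relative terms. Of the mice, no age is given in the sources used here, nor whether the 3 replicates are separate animals or pools. A p-value therefore reflects the spread among these libraries alone, and part of that spread may be technical. The deposited signal is a whole number of reads divided by 1 number per library. It is not scaled by gene length as far as is stated, so a signal is compared between libraries of 1 gene and not between genes. The ratio is compared between genes, but it was not adjusted for the lengths that footprints and RNA reads cover. Differences in ratio between genes may therefore in part reflect those lengths, which was not tested.

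Footprint libraries of hippocampus held 14240563 to 30480009 reads on listed genes and RNA libraries held 16814796 to 25515210. The genes were deeply covered, from 257 reads (Psen2 in an RNA library) to 199386 reads (App in a footprint library). Of the marker genes, culture listed 10 of 10 neuron markers and 9 of 10 astrocyte markers. ESC listed 10 of 10 pluripotency markers, of which hippocampus and culture listed only Sox2. ESC also listed 5 of 10 neuron, 4 of 10 astrocyte and 4 of 6 endothelial markers. The summed footprints of these lists were 30.4, 32.5 and 24.5 in ESC, against means of 704, 551 and 6.85 in control hippocampus. Libraries of the same replicate number resembled each other in all groups, and the values of the genes by number are given after the time course.

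In control hippocampus, the mRNAs of App, Clu and Apoe carried far more footprints per RNA than most mRNAs did, those of Aplp1, Aplp2 and Psen2 carried moderately more, and those of Mapt and Bace1 lay near the median gene. The 3 control ratios, of replicate numbers 1, 2 and 3, were 3.68, 4.22 and 5.07 for App, the precursor of amyloid beta. They were 4.08, 4.31 and 3.96 for the chaperone Clu. They were 3.07, 4.04 and 3.89 for the lipid carrier Apoe. The ranges of these 3 genes overlapped with each other and with no range of the other 5 genes. For the precursor's relatives, the ratios were 2.21, 2.49 and 2.09 for Aplp1. They were 2.10, 2.34 and 2.43 for Aplp2. For the gamma-secretase subunit Psen2, they were 1.76, 1.96 and 2.30, so that these 3 ranges overlapped too. The tau gene Mapt had 1.14, 1.16 and 1.15. The beta-secretase Bace1 had 0.957, 1.13 and 1.01, just under the range of Mapt. By the mean of the 3 ratios Bace1 was the lowest of the 8 genes, and its substrate App, at 4.32 ± 0.704 beside 4.12 ± 0.181 for Clu (SD, n = 3 each), the highest.

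Ranked among all genes of the control group by the ratio of group means, with 1 added to both signals, App lay at percentile 99.5, Clu at 99.4 and Apoe at 99.0. Aplp1 and Aplp2 lay at percentiles 95.7 and 95.6, Psen2 at 84.2, Mapt at 64.2 and Bace1 at 51.7. In limma's test of footprints against RNA in control libraries, each library centred on its median gene, 7 of the 8 genes differed at a Benjamini-Hochberg adjusted p under 0.05, all with more footprints than RNA. Of the 7103 genes tested, 76.6% differed, 41.8% with more footprints and 34.8% with fewer, so that a call alone is common. The log2 ratio was 2.11 for App (SE 0.24, limma with Benjamini-Hochberg adjustment, adjusted p = 1.45e-08). It was 2.05 for Clu (SE 0.17, limma adjusted p = 4.06e-11) and 1.88 for Apoe (SE 0.14, limma adjusted p = 5.15e-12). The median gene tested stood at 0.06 on this scale.

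The amyloid precursor-like genes came next and nearly level, at a log2 ratio of 1.20 for Aplp2 (SE 0.23, limma adjusted p = 4.11e-05) and 1.19 for Aplp1 (SE 0.10, limma adjusted p = 6.28e-11). Psen2 had 0.61 (SE 0.06, limma adjusted p = 1.79e-09), and since its signals are low it depends on the 1 added to each signal: with 0.1 added in place of 1 the log2 ratio was 0.96. Mapt had 0.22 (SE 0.06, limma adjusted p = 0.00086). Bace1 had 0.07, with a 95% interval of -0.08 to 0.22 (SE 0.07, limma adjusted p = 0.42), and with the replicate number as a block its log2 ratio was -0.01. The ratio of Bace1 was thus not told apart from that of the median gene.

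**Figure D1:**
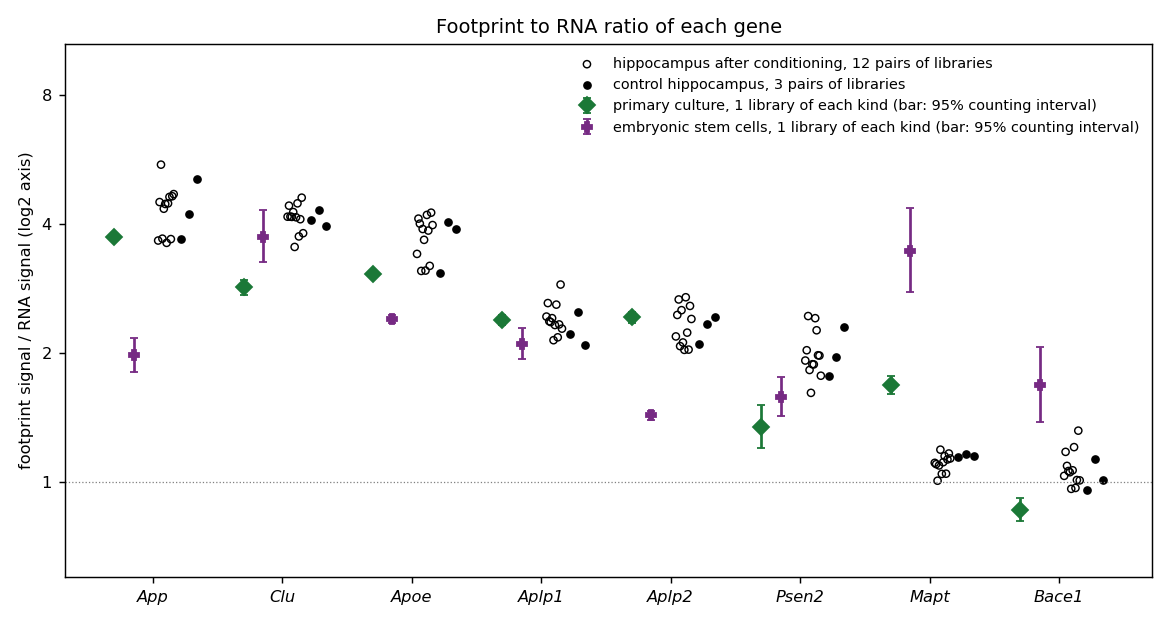
Footprint signal over RNA signal (log2 axis) for each gene: open circles are the pairs of same-numbered hippocampus libraries after conditioning, filled circles the 3 control pairs, diamonds the primary culture and crosses ESC, with bars for the 95% counting interval. In hippocampus App, Clu and Apoe went no lower than 3.07 in all 15 pairs, and Mapt and Bace1 stayed between 0.957 and 1.32.

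Over all 15 pairs of libraries, control and conditioned together, the genes fell into the same 3 bands. The ratio of App ran from 3.61 to 5.49 with a median of 4.45. That of Clu ran from 3.53 to 4.60 with a median of 4.15, and that of Apoe from 3.07 to 4.24 with a median of 3.89. Aplp1 (2.09 to 2.88, median 2.36), Aplp2 (2.03 to 2.69, median 2.34) and Psen2 (1.61 to 2.44, median 1.96) formed a middle band. Mapt ran from 1.01 to 1.19 with a median of 1.13, the narrowest range of the 8, and Bace1 from 0.957 to 1.32 with a median of 1.05.

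The question of the time course is whether conditioning changed the RNA or the ribosome occupancy of these genes within 4 h. None of the 8 genes was called at any time, in footprints, RNA or ratio. The same held for all genes: limma called 0 of 7898 genes in footprints, 0 of 8061 in RNA and 0 of 7103 in the ratio at each of 5 min, 10 min, 30 min and 4 h (0% in each comparison). At an unadjusted p under 0.05 it counted 51, 26, 20 and 42 genes in footprints, 84, 150, 118 and 209 in RNA, and 50, 58, 16 and 44 in the ratio at these times. None of the 8 genes was among them. These counts are of the fit without a block, in which differences between replicate numbers count as spread. Limma's voom on the recovered reads also called 0 genes at each time. With the replicate number as a block, limma called 4 genes in footprints at 30 min, and 3, 2, 2 and 1 in RNA at the 4 times and 1 in the ratio at 5 min, and none of them was an amyloid or tau related gene. Unadjusted p in that blocked limma fit was 0.038 for Aplp2 RNA and 0.040 for App RNA at 4 h. It was 0.0498 for Apoe RNA at 10 min.

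App had footprint signals of 436, 293 and 345 in controls, 464, 331 and 372 at 5 min, 442, 330 and 331 at 10 min, 435, 386 and 312 at 30 min, and 436, 381 and 354 at 4 h, for replicate numbers 1, 2 and 3. Its RNA signals were 119, 69.5 and 68.1 in controls, 127, 73.6 and 67.8 at 5 min, 120, 76.1 and 74.5 at 10 min, 121, 86.5 and 67.6 at 30 min, and 118, 82.3 and 75.5 at 4 h. Replicate number 1 was high in every group, in both kinds of library, and the times overlapped with controls throughout. The log2 change of App footprints lay between 0.04 and 0.14, and 95% intervals ran from -0.35 to 0.53. The log2 change of App RNA lay between 0.06 and 0.13, with intervals from -0.57 to 0.76, the widest of the 8 genes. Intervals of single genes are given without the replicate block. With it they were narrower, and their widest bounds follow below.

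Aplp2 had footprint signals of 102, 65.6 and 78.0 in controls, 108, 72.5 and 84.7 at 5 min, 104, 73.5 and 74.9 at 10 min, 102, 83.9 and 71.0 at 30 min, and 103, 81.8 and 80.5 at 4 h. Its RNA signals were 48.6, 28.1 and 32.1 in controls, 49.7, 29.6 and 31.8 at 5 min, 50.2, 29.2 and 35.4 at 10 min, 49.98, 31.2 and 31.9 at 30 min, and 50.7, 31.8 and 33.6 at 4 h. As for App, number 1 was the highest library of each group and the ranges of all times overlapped with controls. Its log2 changes lay between 0.04 and 0.13 in footprints and between 0.03 and 0.10 in RNA.

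Aplp1 was the exception among the 3 relatives in that its libraries did not split by number in this way. Its footprint signals were 160, 153 and 161 in controls, 178, 171 and 179 at 5 min, 167, 169 and 169 at 10 min, 162, 191 and 150 at 30 min, and 158, 195 and 165 at 4 h. All 3 libraries at 5 min and all 3 at 10 min lay above all 3 controls, the sole cases among the 8 genes in which a time did not overlap with control. In footprints, 1.77%, 1.29%, 0.823% and 1.72% of the 7898 genes lay wholly above control in this way at 5 min, 10 min, 30 min and 4 h, and 3.06%, 1.24%, 0.405% and 1.09% lay wholly below. In RNA, where none of the 8 genes separated, the shares of the 8061 genes were 3.01%, 5.78%, 4.44% and 5.46% above and 1.76%, 1.29%, 0.682% and 1.43% below. The mean footprint signal of Aplp1 was 1.12 times the control mean at 5 min and 1.07 times at 10 min. The log2 change at 5 min was 0.16 with a 95% interval of -0.07 to 0.38 (limma, unadjusted p = 0.16, Benjamini-Hochberg adjusted p above 0.99), the smallest unadjusted p that any of the 8 genes had in footprints. RNA of Aplp1 was 72.2, 61.3 and 76.9 in controls, 73.1, 65.6 and 75.5 at 5 min, 70.7, 70.0 and 78.9 at 10 min, 70.0, 73.7 and 68.9 at 30 min, and 68.0, 67.7 and 72.6 at 4 h. These overlapped with controls at each time, with log2 changes between -0.01 and 0.07.

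**Figure D2:**
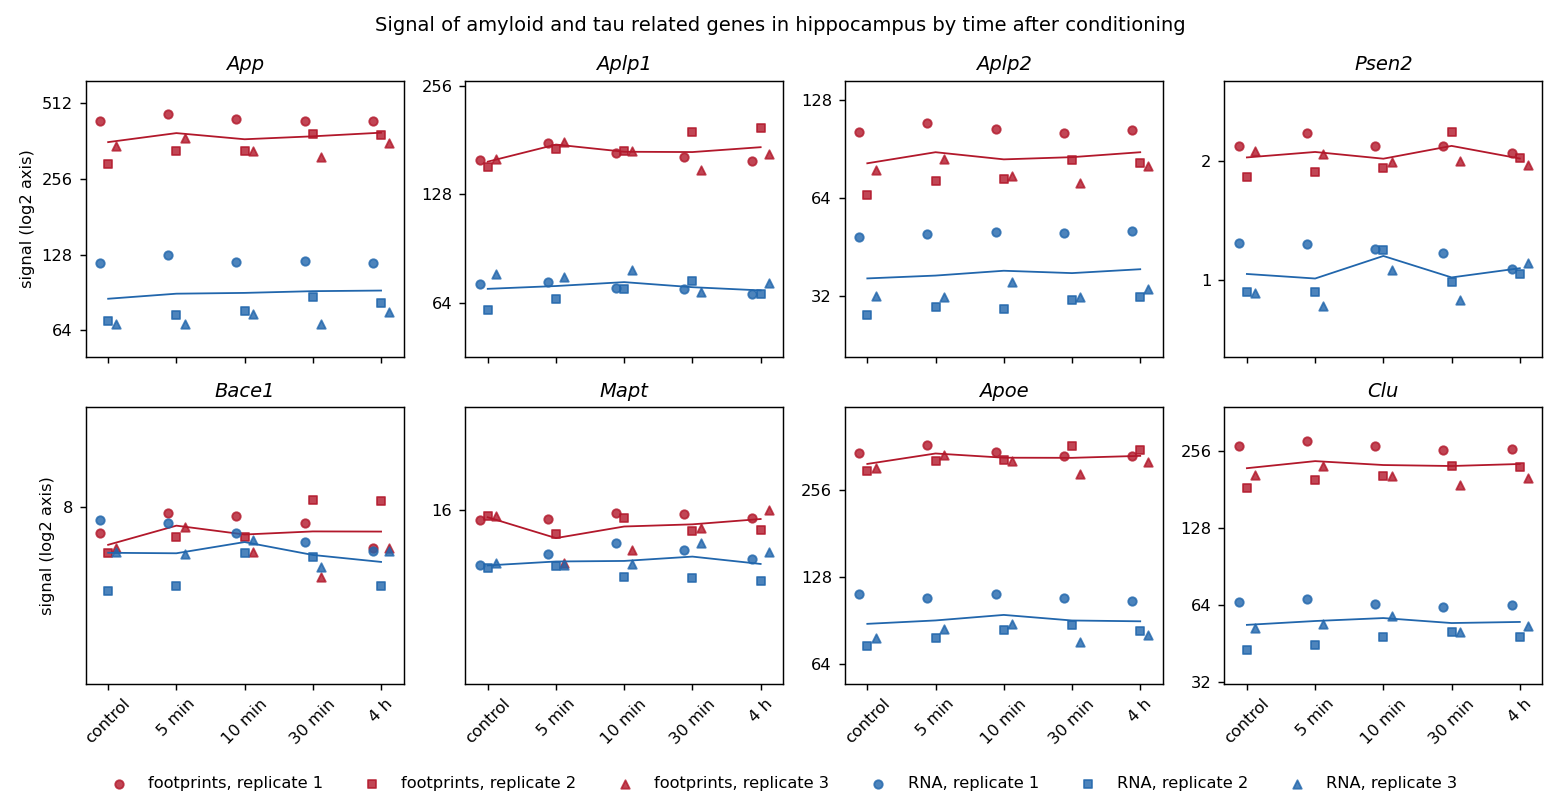
Signal of each gene (log2 axis, each panel with its own range) in control hippocampus and at 5 min, 10 min, 30 min and 4 h after conditioning: red marks are footprints, blue marks RNA, the shape gives the replicate number and lines join group means. For App, number 1 (RNA 118 to 127) lies above numbers 2 and 3 (67.6 to 86.5) at every time, and for Mapt all 15 RNA libraries lie between 12.96 and 14.5.

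The secretase genes overlapped with control at each time too. Bace1 had footprint signals of 7.35, 6.88 and 6.997 in controls, 7.84, 7.26 and 7.48 at 5 min, 7.78, 7.25 and 6.92 at 10 min, 7.60, 8.19 and 6.38 at 30 min, and 7.0025, 8.15 and 6.9965 at 4 h. In RNA it had 7.68, 6.09 and 6.91 in controls, 7.59, 6.19 and 6.87 at 5 min, 7.34, 6.88 and 7.19 at 10 min, 7.15, 6.79 and 6.59 at 30 min, and 6.94, 6.196 and 6.94 at 4 h. Log2 changes of Bace1 lay between 0.04 and 0.08 in footprints and between -0.03 and 0.05 in RNA, and each time overlapped with control. Psen2 had footprint signals of 2.19, 1.82 and 2.13 in controls, 2.37, 1.88 and 2.09 at 5 min, 2.18, 1.92 and 1.99 at 10 min, 2.19, 2.37 and 2.01 at 30 min, and 2.11, 2.04 and 1.95 at 4 h. In RNA, Psen2 had 1.24, 0.933 and 0.927 in controls, 1.23, 0.928 and 0.858 at 5 min, 1.20, 1.19 and 1.06 at 10 min, 1.17, 0.985 and 0.889 at 30 min, and 1.07, 1.04 and 1.11 at 4 h. Psen2 RNA had the fewest reads of the 8 genes, 257 to 444 per library, and its log2 change of 0.08 at 10 min had a 95% interval of -0.08 to 0.24.

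Mapt was the steadiest of the 8 genes. Its RNA signals were 13.6, 13.5 and 13.7 in controls, 14.05, 13.6 and 13.6 at 5 min, 14.5, 13.1 and 13.6 at 10 min, 14.2, 13.1 and 14.5 at 30 min, and 13.8, 12.96 and 14.1 at 4 h. Its footprint signals were 15.5, 15.7 and 15.7 in controls, 15.6, 14.9 and 13.7 at 5 min, 15.8, 15.6 and 14.2 at 10 min, 15.8, 15.02 and 15.2 at 30 min, and 15.6, 15.1 and 16.01 at 4 h. The lowest footprints were those of number 3 at 5 min and 10 min, and each time overlapped with control. Mapt was the gene whose mean footprints were below control at all times, with log2 changes between -0.08 and -0.01. The lowest of these, at 5 min, had a 95% interval of -0.23 to 0.06 (limma, unadjusted p = 0.23).

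The genes of the secreted proteins split by replicate number as App did, except in Apoe footprints. Apoe had footprint signals of 343, 298 and 306 in controls, 367, 323 and 339 at 5 min, 348, 326 and 322 at 10 min, 337, 365 and 293 at 30 min, and 337, 352 and 321 at 4 h. Apoe RNA was 112, 73.8 and 78.7 in controls, 108, 78.7 and 84.8 at 5 min, 112, 83.8 and 87.9 at 10 min, 108, 87.2 and 75.9 at 30 min, and 106, 83.1 and 80.8 at 4 h. Apoe RNA was highest in number 1 in every group, whereas Apoe footprints were highest in number 2 at 30 min and 4 h. Clu had footprint signals of 268, 183 and 206 in controls, 281, 196 and 224 at 5 min, 268, 204 and 205 at 10 min, 259, 224 and 188 at 30 min, and 261, 221 and 201 at 4 h. Clu RNA was 65.8, 42.5 and 52.1 in controls, 67.6, 44.6 and 53.9 at 5 min, 64.6, 47.8 and 58.2 at 10 min, 62.6, 50.2 and 50.3 at 30 min, and 63.7, 48.0 and 53.0 at 4 h. Log2 changes of Apoe lay between 0.07 and 0.12 in footprints and between 0.04 and 0.11 in RNA. Those of Clu lay between 0.03 and 0.09 in footprints and between 0.04 and 0.10 in RNA, and both genes overlapped with control at each time.

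Across the 8 genes, log2 changes against control lay between -0.08 and 0.16 in footprints, between -0.03 and 0.13 in RNA and between -0.10 and 0.14 in the ratio. The comparisons share the control libraries, and the median change of the 8 genes in footprints was 0.10 at 5 min, 0.04 at 10 min, 0.07 at 30 min and 0.08 at 4 h, beside medians of all genes tested of -0.005, 0.0005, 0.01 and 0.002. In RNA the medians were 0.03, 0.08, 0.04 and 0.04, beside 0.01, 0.03, 0.03 and 0.03 over all genes. Set against the control library of the same number, 6 of the 8 genes (App, Aplp1, Aplp2, Bace1, Apoe and Clu) had higher footprints at 5 min in all 3 numbers, among 20.7% of all genes tested. At 10 min this held for 2 of the 8 genes (12.6% of all genes), at 30 min for none (8.26%) and at 4 h for 1 (13.7%). In RNA it held for 1, 3, none and 1 of the 8 genes at these times, among 19.7%, 31.9%, 23.6% and 27.5% of all genes. Lower in all 3 numbers was 1 of the 8 genes, Psen2, in RNA at 5 min, and none in the other comparisons. The share of all genes lower in this way was not counted. These counts were added after the data were seen and carry no test, and they rest on the same 3 control libraries. Cell type markers in the same libraries varied too. The summed footprint signal of the 10 astrocyte markers ran from 458 to 639 in controls, and from 503 to 690 at 5 min, 512 to 666 at 10 min, 521 to 651 at 30 min and 573 to 654 at 4 h. At 5 min the sums of the astrocyte, neuron, oligodendrocyte and microglia markers all lay above the control of the same number in each number, with means of 596, 716, 397 and 74.4 at 5 min, against 551, 704, 367 and 68.2 in controls. The sum of the endothelial markers lay below that control in numbers 1 and 2 and above it in number 3. Its means were 6.71 at 5 min and 6.85 in controls. The choroid plexus markers averaged 1406 in controls, 1098 at 5 min, 1135 at 10 min, 872 at 30 min and 859 at 4 h, with overlapping ranges. The part of these markers in the values of the 8 genes was not tested. All 32 intervals held 0 in each of footprints, RNA and ratio. The widest bounds were -0.39 and 0.55 in footprints (both Aplp2), -0.57 and 0.76 in RNA (both App) and -0.80 and 0.82 in the ratio (both App). These fits had no block, and in the ratio they took same-numbered footprint and RNA libraries as independent. With the replicate number as a block the bounds narrowed to -0.19 and 0.34 in footprints, -0.13 and 0.25 in RNA and -0.28 and 0.35 in the ratio. All 32 footprint and all 32 ratio intervals still held 0, and 29 of 32 RNA intervals did. The other 3 were Apoe at 10 min, with a log2 change of 0.11, and Aplp2 and App at 4 h, with 0.10 and 0.13, and their smallest adjusted p in limma was 0.27 (Benjamini-Hochberg), not past the threshold.

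**Figure D3:**
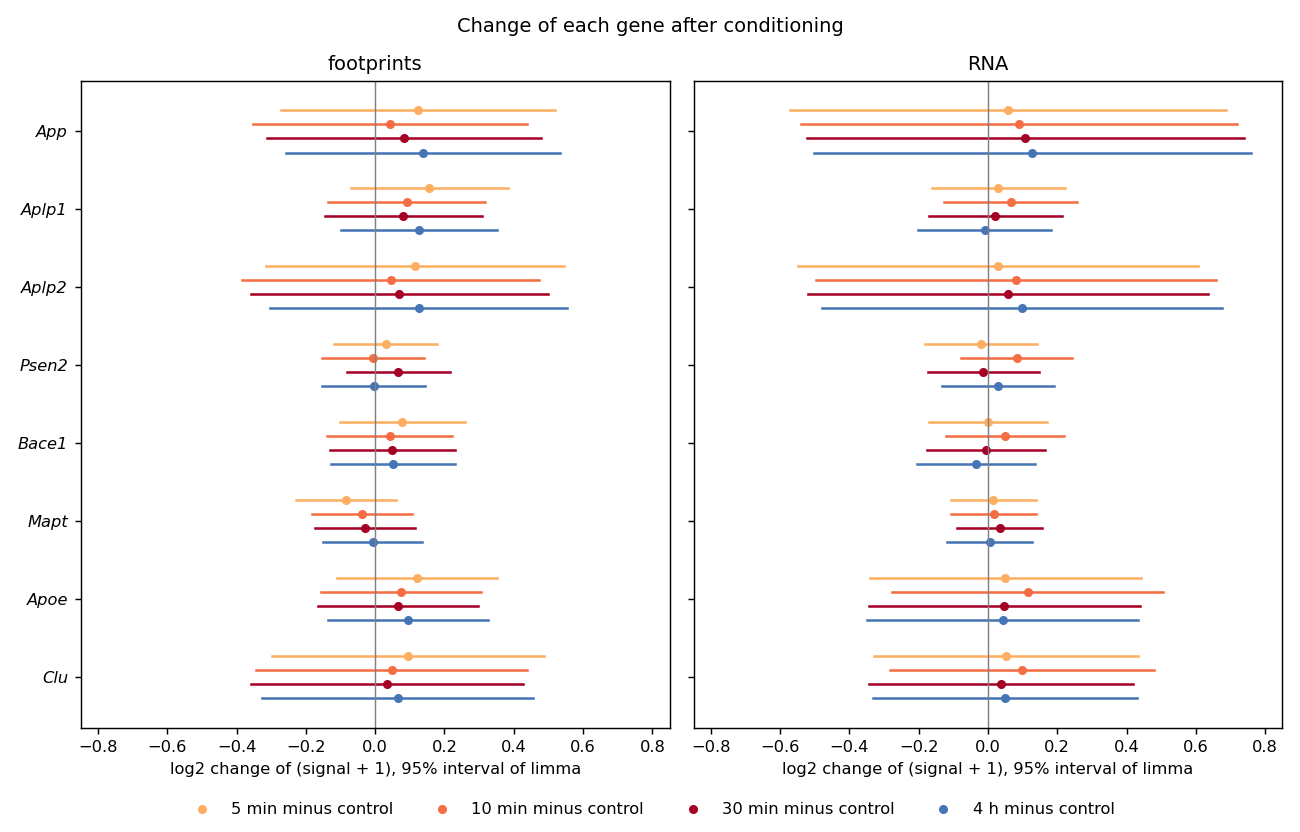
Log2 change of each gene at 5 min, 10 min, 30 min and 4 h against control, on log2(signal + 1), for footprints (left) and RNA (right): points are the estimates of limma and lines their 95% intervals, without a replicate block. Every interval crosses 0, those of App and Aplp2 RNA are the widest and those of Mapt the narrowest.

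The replicate number, which is shared by 1 library of each kind in each of the 5 groups, is the other way in which the libraries fall into sets. In RNA, 7 of the 8 genes differed by number in limma's F-test at a Benjamini-Hochberg adjusted p under 0.05, Mapt being the exception (adjusted p = 0.068 in limma, but 0.042 without control replicate 2), among 65.5% of the 8061 genes tested. By voom 5 of the 8 RNA calls were made, without Psen2 and Bace1 (adjusted p = 0.11 and 0.21 in limma voom). In footprints, 3 of the 8 genes differed, Aplp2, Clu and App, among 73.1% of the 7898 genes tested, and 5 by voom, which added Aplp1 and Bace1. These shares of all genes are so high that the calls themselves say little about the 8 genes. The sizes differed more between them.

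App RNA averaged 121 ± 3.52 in the 5 libraries of number 1, 77.6 ± 6.79 in those of number 2 and 70.7 ± 3.96 in those of number 3 (SD, n = 5 each, limma F-test with Benjamini-Hochberg adjustment, adjusted p = 1.49e-12). Aplp2 RNA averaged 49.9 ± 0.783, 29.97 ± 1.503 and 33.0 ± 1.56 in numbers 1, 2 and 3 (SD, n = 5 each, limma adjusted p = 8.85e-14). Apoe RNA averaged 109 ± 2.70, 81.3 ± 5.17 and 81.6 ± 4.77 in the same numbers (limma adjusted p = 3.95e-09). In these 3 genes each library of number 1 lay above each library of numbers 2 and 3. Clu RNA averaged 64.9 ± 1.92, 46.6 ± 3.04 and 53.5 ± 2.94 in numbers 1, 2 and 3, again with number 1 apart (limma adjusted p = 4.76e-09).

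The footprints of App, Clu and Aplp2 were higher in number 1 as well. App footprints averaged 443 ± 12.2, 344 ± 39.1 and 343 ± 22.8 in numbers 1, 2 and 3 (SD, n = 5 each, limma F-test, adjusted p = 0.000302). Clu footprints averaged 267 ± 8.47, 206 ± 16.9 and 205 ± 12.9 (limma adjusted p = 5.53e-05). Aplp2 footprints averaged 104 ± 2.77, 75.5 ± 7.43 and 77.8 ± 5.23 (limma adjusted p = 5.29e-06). Apoe footprints averaged 346 ± 12.5, 333 ± 26.5 and 316 ± 17.6, ranges that overlapped (limma adjusted p = 0.19).

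The ratio therefore differed by number for some of the genes. For App it averaged 3.66 ± 0.0331 in number 1, 4.43 ± 0.160 in number 2 and 4.86 ± 0.419 in number 3 (SD, n = 5 each). For Apoe it averaged 3.18 ± 0.133, 4.09 ± 0.140 and 3.88 ± 0.131, and for Aplp2 2.08 ± 0.0620, 2.51 ± 0.133 and 2.37 ± 0.209. An F-test of the ratio by number, added after the data were seen, called 4 of the 8 genes, Apoe, App, Aplp2 and Bace1 (limma with Benjamini-Hochberg adjustment, adjusted p = 0.00127, 0.00257, 0.0129 and 0.0222), among 44.2% of the 7103 genes tested. Over all numbers, the ratio of App went no lower than 3.61 and that of Apoe no lower than 3.07.

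Markers of other cell types moved with the number as well. All 10 astrocyte markers were listed, and their summed footprint signal ran from 639 to 690 in number 1, from 458 to 573 in number 2 and from 521 to 595 in number 3. Their summed RNA signal ran from 653 to 691, from 476 to 582 and from 545 to 596 in these numbers. The summed footprint signal of the 11 choroid plexus markers, such as Ttr, all listed, ran from 1329 to 2112 in number 1, from 936 to 1919 in number 2 and from 73.3 to 502 in number 3, and that of the 10 neuron markers from 720 to 745, from 678 to 720 and from 702 to 737. The 9 microglia markers, all listed, summed to between 79.1 and 87.0, between 54.9 and 71.3 and between 67.8 and 75.6 in footprints of these numbers. The 6 endothelial markers summed to between 7.41 and 9.02, between 5.63 and 7.0 and between 5.23 and 6.29, and the 8 oligodendrocyte markers to between 373 and 426, between 306 and 400 and between 368 and 431. Summed footprints of the astrocyte, microglia and endothelial markers were thus highest in number 1, where App, Aplp2 and Clu were high, those of the oligodendrocyte markers overlapped between the numbers, and those of the choroid plexus markers were lowest in number 3. The neuron markers had means of 735, 694 and 718 in footprints of numbers 1, 2 and 3, so number 1 was highest here too. For the choroid plexus markers these means were 1596, 1388 and 237. The part of all these markers in the differences between numbers was not tested, and in whole tissue more cells of a type and more RNA per cell cannot be told apart.

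**Figure D4:**
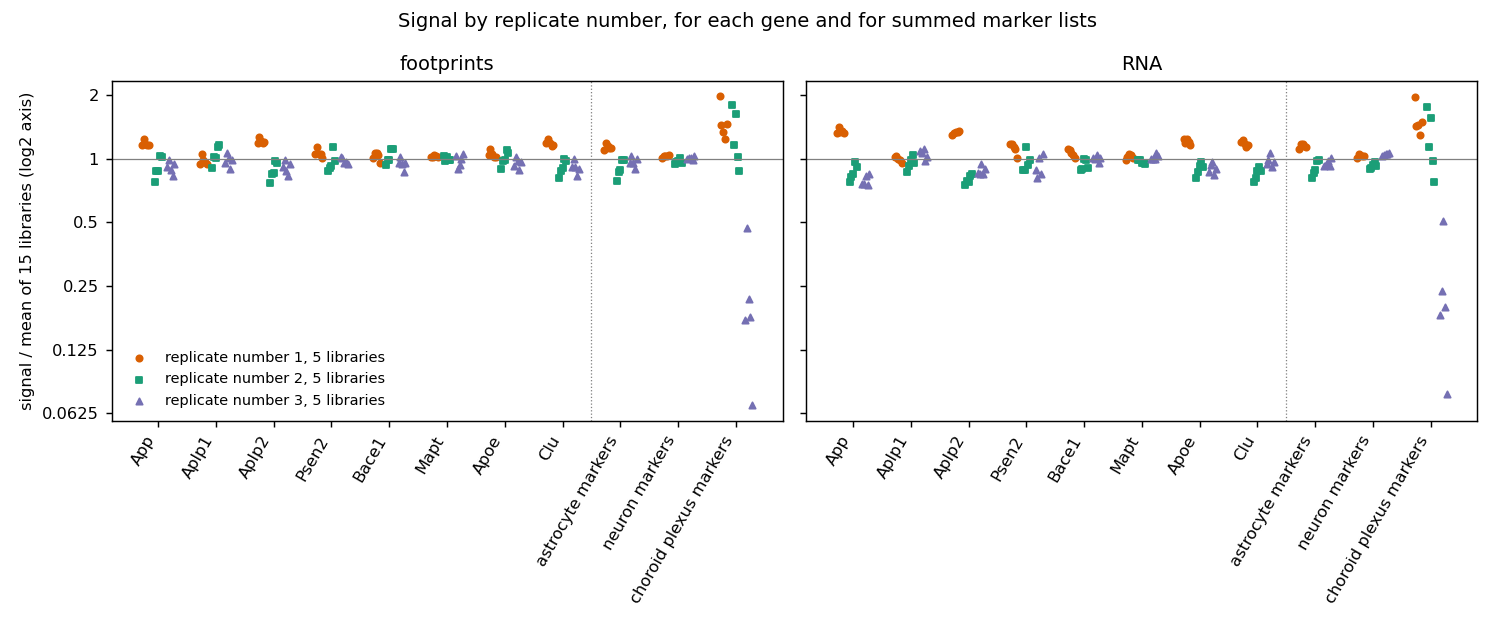
Signal of each gene, and summed signal of 3 marker lists, over its mean in the 15 hippocampus libraries of the kind (log2 axis), with colour and shape for the replicate number. RNA of App, Aplp2, Apoe and Clu is higher in number 1 than in numbers 2 and 3, Mapt shows no such split, and the choroid plexus markers are low in number 3.

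Several of the 8 genes followed each other over the 15 libraries of a kind. On log2(signal + 1) of footprints, Pearson's r was 0.99 between App and Aplp2, 0.99 between Aplp2 and Clu and 0.98 between App and Clu, over 15 libraries that share replicate numbers and scaling. In RNA it was 0.96 between App and Apoe and 0.96 between Aplp2 and Apoe. Aplp1 footprints had an r of 0.84 to Bace1, 0.75 to Apoe, 0.26 to App and -0.40 to Mapt. For Mapt footprints, r to the other 7 genes ran from -0.40 to 0.26. Over the same libraries, the footprints most like those of App were those of Hyou1, an endoplasmic reticulum chaperone (r = 0.994), and Sez6l2 (r = 0.994). Those most like Clu were Psap, the precursor of lysosomal saposins (r = 0.996), and Npc1, a lysosomal cholesterol transporter (r = 0.992). Close to those of Aplp2 were the footprints of the glucosidase subunit Ganab (r = 0.995). The nearest were, for Aplp1, the proteoglycan Cspg5 (r = 0.969) and Lrp11 (r = 0.958), and for Apoe Tmem66 (r = 0.959) and Rcn2 (r = 0.951).

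For Bace1 the nearest footprints were those of the lysosomal sialidase Neu1 (r = 0.960) and of Hapln4 (r = 0.933), for Psen2 those of the activin receptor Acvr2a (r = 0.918) and of Gpr37l1 (r = 0.904), and for Mapt those of Kdm3b (r = 0.839) and the transcription factor Tbr1 (r = 0.798). In RNA the nearest to App were Mia3 (r = 0.991), a cargo receptor of the endoplasmic reticulum, and the cell adhesion gene Ncam1 (r = 0.989). Those to Apoe were the protein disulfide isomerase P4hb (r = 0.988) and Gsn (r = 0.988), and to Clu Tmem59 (r = 0.981) and Chga (r = 0.979). For Aplp1 they were Ei24 (r = 0.926) and Tnfrsf21 (r = 0.898), for Bace1 Isca1 (r = 0.935) and Fam171a1 (r = 0.921), and for Mapt Enc1 (r = 0.896) and Il16 (r = 0.881).

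In hippocampal primary culture, 1 library of each kind was sequenced, so that there is no test, and its table may have been scaled apart from that of hippocampus. Clu was much lower in culture, at a footprint signal of 55.5 against a mean of 219 ± 43.9 in control hippocampus (SD, n = 3), which is 0.253 times the control and percentile 0.96 among the 10144 genes listed in both. Its RNA signal was 19.6 in culture and 53.5 ± 11.7 in control hippocampus, 0.366 times the control. Aplp1 was at 0.597 times the control in footprints (94.2 in culture, 158 ± 4.41 in control) and 0.563 times in RNA (39.5 in culture, 70.1 ± 8.04 in control). Apoe was at 0.704 times in footprints (222 in culture, 316 ± 24.3 in control) and 0.828 times in RNA (72.9 in culture, 88.1 ± 20.7 in control, with the culture below all 3 control libraries).

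Psen2 was higher in culture, at footprints of 3.70 in culture and 2.05 ± 0.195 in control, 1.81 times the control, and at 2.66 times in RNA (2.75 in culture, 1.03 ± 0.181 in control). Bace1 was at 1.32 times the control in footprints (9.36 in culture, 7.07 ± 0.245 in control) and 1.58 times in RNA (10.9 in culture, 6.89 ± 0.797 in control). Mapt was at 1.55 times in footprints (24.2 in culture, 15.6 ± 0.0967 in control) and 1.06 times in RNA (14.4 in culture, 13.6 ± 0.0864 in control). App and Aplp2 lay within the range of the control libraries in both kinds, at footprints of 387 and 95.8 and RNA of 104 and 39.6 in culture.

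The astrocyte markers summed to 306 in footprints and 268 in RNA of culture, from the 9 of 10 listed, against 458 to 639 and 476 to 653 in control hippocampus. Neuron markers summed to 382 in footprints of culture, against 678 to 720 in control hippocampus. Oligodendrocyte markers summed to 1.53 in culture from the 3 of 8 listed, against 306 to 413 in control, and choroid plexus markers to 27.1 from the 3 of 11 listed, against 186 to 2112. Culture listed 2 of the 9 microglia markers and none of the 6 endothelial markers. The part of the cell make-up in the levels of Clu, Apoe and Aplp1 was not tested.

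ESC differed far more. App footprints were 4.99 in ESC and 358 ± 72.7 in control hippocampus, 71.8 times higher in the control, and App RNA was 2.53 in ESC and 85.4 ± 28.9 in control, 33.8 times higher in the control. Clu was 56.4 times higher in the control in footprints (3.89 in ESC, 219 in control) and 51.3 times in RNA (1.04 in ESC, 53.5 in control). Aplp1 was 23.9 and 22.3 times higher in the control in footprints and RNA, from signals of 6.59 and 3.14 in ESC. Mapt was 11.2 times higher in the control in footprints and 33.6 times in RNA, from 1.398 and 0.405 in ESC, and Bace1 was 7.48 and 12.2 times higher, from 0.945 and 0.563 in ESC. Aplp2 was at 0.668 times the control in footprints (54.7 in ESC, 81.9 ± 18.5 in control) and 1.06 times in RNA (38.3 in ESC, 36.3 ± 10.9 in control), where it lay within the range of the control libraries. Apoe remained substantial in ESC, at footprints of 102 in ESC and 316 in control and RNA of 42.3 in ESC and 88.1 in control. Psen2 alone was higher in ESC in both kinds, at 1.51 times the control in footprints and 1.89 times in RNA, close to the median of the 9443 genes listed in both (percentiles 52.8 and 60.2).

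**Figure D5:**
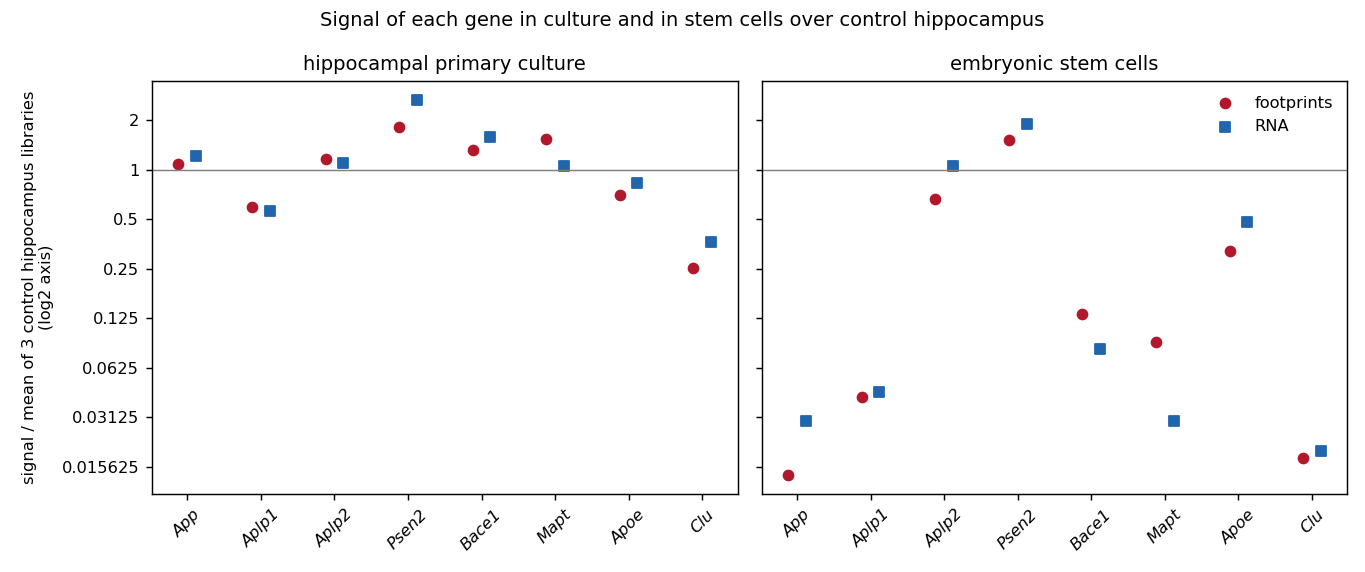
Signal in the culture (left) and in ESC (right) over the mean of the 3 control hippocampus libraries (log2 axis), with circles for footprints and squares for RNA. Clu in culture lies at 0.253 in footprints and 0.366 in RNA, and in ESC Aplp2, Psen2 and Apoe lie nearest to 1.

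The order of these genes by ratio was near that of hippocampus in culture and differed more in ESC. The ratios given for culture and ESC are not centred on the median gene of their sample. In culture the ratio was 3.72 for App, with a 95% counting interval of 3.66 to 3.78, close to the lower end of hippocampus. It was 3.05 for Apoe (2.99 to 3.11), level with the lowest hippocampus pair, and 2.84 for Clu (2.73 to 2.96), under all 15 hippocampus pairs. Aplp1 had 2.38 (2.32 to 2.45) and Aplp2 2.42 (2.35 to 2.49), within the range of hippocampus. Psen2 had 1.34 (1.20 to 1.51) and Bace1 0.862 (0.810 to 0.917), both under all 15 hippocampus pairs, and Bace1 was the sole gene of the 8 below the median of the culture. Mapt had 1.68 (1.60 to 1.77), above all 15 hippocampus pairs. Such intervals reflect counting error alone and take each read as a separate molecule, which PCR copies are not.

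In ESC all 8 genes lay above the median gene. App had a ratio of 1.97 (1.799 to 2.16) and Apoe 2.40 (2.35 to 2.45), both below all hippocampus pairs. Aplp2, at 1.43 (1.39 to 1.46), and Psen2, at 1.58 (1.42 to 1.76, an interval that reaches the hippocampus range), lay below them too. Aplp1 had 2.10 (1.94 to 2.28), within the hippocampus range by this uncentred ratio. Clu had 3.73 (3.25 to 4.30), on few reads. Mapt had 3.46 (2.77 to 4.36) and Bace1 1.68 (1.38 to 2.06). Mapt and Bace1 thus exceeded their hippocampus range in ESC, where their signals were low.

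Genes that act with the 8 were looked at in 7 lists of 67 genes, of which 58 were tested in footprints, 60 in RNA and 58 in the ratio. None was called at any time. In the control ratio 47 of the 58 were called by limma, 36 with more footprints than RNA and 11 with fewer, among 76.6%, 41.8% and 34.8% of all genes. The counts of each list stand against the same shares. Their median log2 ratio was 0.53, beside 0.06 over all genes and 1.19 over the 8 genes. Among the gamma-secretase partners of the presenilins, 3 of 5 were tested and 2 were called. Psenen had a log2 ratio of 1.42 and Aph1a, the lowest, 0.13 (limma adjusted p = 1.45e-10 and 0.13, Benjamini-Hochberg). Of 2 alpha-secretases tested, Adam10 was called with more footprints, at 0.36, and Adam9 with fewer, at -0.60. Of 11 App adaptors and sorting genes, 6 were called with more and 3 with fewer, from Itm2b, a membrane protein that binds App, at 1.53 to the adaptor Apbb2 at -0.52.

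Of the 5 tested genes of amyloid degradation, 3 were called with more footprints and 2 with fewer. The lysosomal protease Ctsb was highest at 1.19, and Ide, the insulin-degrading enzyme, lowest at -0.25. Of 16 tau kinases and phosphatases, 8 were called with more and 3 with fewer. The Cdk5 activator Cdk5r2 had 2.36, above App, and the tau tubulin kinase Ttbk2 had -1.60. Of 11 microtubule-associated proteins, 9 were called with more footprints than RNA and 1 with fewer, from the stathmin family gene Stmn4 at 1.78 to Map2 at -1.28, the dendritic counterpart of tau. Of 10 lipoprotein receptors and lipid export genes, 7 were called with more and 1 with fewer. The transporter Abcg4 had 1.18, and Vldlr, a receptor for Apoe, had -0.56. Mapt, at 0.22, thus lay between the extremes of the microtubule genes, and App, Clu and Apoe lay above all these named partners but Cdk5r2.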

How the data were processed

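The deposited tables give 1 signal value per gene and library. The submitters' processing notes name CASAVA 1.8.2, Bowtie 1.1.1 and the genome build mm9. Per the labels' protocols, lysates held cycloheximide and ribosome complexes were collected on gel filtration columns. What the authors divided reads by to reach the deposited signal, and how reads that match either strand or several genes were counted, are points not given in the sources used here. All values were whole reads, within 0.001, over 1 number per library.

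Libraries were grouped by their labels. Tests used limma 3.58.1 in R 4.3.3 (trend) on log2(signal + 1), over genes with a mean signal of at least 1, with all 5 hippocampus groups in 1 model, no block, 2-sided, with p-values adjusted by Benjamini-Hochberg over every gene tested and called under 0.05. Changes on this scale understate those of low genes. The plan named the test for normalised values, which this unit needs. The ratio was the interaction of both kinds in 1 model of 30 libraries, and the control ratio used libraries centred on their median gene. The scripts were tested on simulated data without differences by replicate number, so that this does not give the power in these libraries. Deposited mean and log2 fold columns were not used.

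The replicate numbers, taken from the labels, pair the libraries: deviations from the group means correlated between same-numbered libraries at 0.40 to 0.94 in footprints (30 pairs) and 0.27 to 0.87 in RNA (30 pairs), and at 0.46 to 0.75 between the kinds (15 pairs). Blocked values are given where they change a call. The 8 genes, the lists and the markers were chosen with earlier results of these data known. Of the lists, the named genes are the highest and lowest control ratio of each and any called at a time. Likeness is the highest Pearson correlation over 15 libraries among genes past the filter, and some of the nearest genes are not reported here. No p-value was adjusted over a list alone. Alternatives were a pseudocount of 0.1, no filter, another scaling, the block, each library left out, and, added after seeing the data, limma voom on the recovered reads and each replicate number left out of all groups.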

Additional observations from a re-analysis of the deposited data

How the results depend on the processing

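None of the 8 genes was called in a time comparison under any alternative run. The number of all genes called, 0 in each time comparison, moved under some alternatives. Without the filter on low values it was 1 in footprints at 10 min, 1 at 30 min and 2 for any time, and 1 in RNA for any time, and the control ratio had 8676 calls in place of 5441. With the replicate block it was 4 in footprints at 30 min and 6 for any time, 3, 2, 2 and 1 in RNA at 5 min, 10 min, 30 min and 4 h and 5 for any time, and 1 in the ratio at 5 min. With voom and the block it was 1 in footprints at 5 min, 4 at 30 min and 6 for any time, and in RNA 2 at 10 min, 1 at 4 h and 3 for any time. Leaving out single libraries gave 0 to 1 for any time in footprints, the 1 without library 2 of 5 min. The control log2 ratio of Bace1 turned to -0.00717 with the replicate block and -0.00391 with voom and the block, and the other 7 kept sign and call in all alternatives. By replicate number, voom called 5 of the 8 genes in footprints in place of 3, and 5 in RNA in place of 7, losing Psen2 and Bace1 (adjusted p = 0.11 and 0.21 in limma voom). Mapt RNA passed without control replicate 2 (limma adjusted p = 0.042). The call of Aplp1 RNA by number was lost without library 2 or 3 of control, 5 min or 10 min, or library 3 of 4 h, with adjusted p in limma (Benjamini-Hochberg) up to 0.10. The causes were not tested. The planned count model and levels per gene length were not run. With 3 libraries a group and no block, the interval of the App RNA change at 4 h reached from -0.50 to 0.76. With the replicate block it reached from 0.006 to 0.25 (limma, Benjamini-Hochberg adjusted p = 0.28).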
